A study of Rattus norvegicus with 9 samples.

Results

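The family of miR-34 and miR-449a is a set of microRNAs (miRNAs), short RNAs that guide silencing proteins to messenger RNAs, whose 5p arms share 1 seed, the stretch at bases 2 to 8 that pairs with targets. The rows described here are those of the deposited table named rno-miR-34a, rno-miR-34b, rno-miR-34c or rno-miR-449a with any arm ending, which gave 7 of the 633 listed mature miRNAs: rno-miR-34a-5p, rno-miR-34a-3p, rno-miR-34b-5p, rno-miR-34b-3p, rno-miR-34c-5p, rno-miR-34c-3p and rno-miR-449a-5p. All 7 passed the filter on low counts. The family was selected on its measured levels in these libraries across the VEH, MK-801 and MK-801+CLO groups, so its levels and fold changes are given as a description, with no test.

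The 9 small RNA libraries came from rat hippocampus (Sprague-Dawley strain), 3 per group. Rats of the VEH group were given saline throughout. MK-801 blocks the NMDA receptor and is used in rodents as a model of schizophrenia. The MK-801 group had a daily dose of 0.2 mg/kg over 14 days and then saline for 7 days. Rats labelled MK-801+CLO were given the same 14 days of MK-801 and then 10 mg/kg for 7 days of the compound that the group name shortens to CLO, clozapine, an atypical antipsychotic. All injections were into the abdomen, and all groups were of 1 strain. The labels give 10 rats per group but not how many rats went into a library, so the spread between libraries may be technical in part. They give the age both as postnatal day 21 and as 5 weeks at the start of dosing, and this was not resolved.

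In background, miR-34a comes from a transcript of its own, is found in many tissues including neurons, and is a classic target of the tumour suppressor p53. MiR-34b and miR-34c are cut from 1 shared primary transcript. Together with miR-449a they are known from cells with many motile cilia, such as those of airway, oviduct, choroid plexus and ventricle lining, where they promote the formation of cilia and act on the centriole cap protein CP110. Mice that lack the cluster of miR-34b/34c and that of miR-449a have defects of motile cilia. No messenger RNA was measured here, and the labels name no tissue but hippocampus, so a ciliated source of these miRNAs is background and not a measurement of this study.

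The mature sequences show what the members share and where the counting could mix them. They are credited to RefSeq (build GRCr8), match the deposited sequence in all 7 rows with U written for T, and are printed 5′ to 3′ with the seed in capitals.
miR-34a-5p: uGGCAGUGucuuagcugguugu
miR-34b-5p: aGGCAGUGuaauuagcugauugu
miR-34c-5p: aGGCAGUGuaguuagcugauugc
miR-449a-5p: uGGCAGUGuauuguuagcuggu
miR-449c-5p: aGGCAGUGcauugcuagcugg
miR-34b-3p: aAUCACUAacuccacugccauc
miR-34c-3p: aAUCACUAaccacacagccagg
miR-34a-3p: aAUCAGCAaguauacugcccua

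The 5p arms of miR-34a, miR-34b, miR-34c and miR-449a carry the same seed, GGCAGUG, as does miR-449c-5p, and these 5 are the only ones with it among the 693 mature rat miRNAs of the RefSeq table. MiR-34b-3p and miR-34c-3p share another seed, AUCACUA, which no other mature miRNA of that table has, and miR-34a-3p has its own, AUCAGCA. Between miR-34b-5p and miR-34c-5p there are 2 substitutions, A11G and U23C, with the miR-34b base first and positions counted from the 5′ end. MiR-34b-3p and miR-34c-3p differ by 5 substitutions (U11C, C12A, U16A, U21G and C22G). MiR-34a-5p and miR-449a-5p differ at 7 of 22 positions when laid base over base. The sources used here do not give how reads that match several miRNAs were assigned, so the level of miR-34b-5p, whose sequence is nearest to that of the far more abundant miR-34c-5p, is uncertain for this reason.

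The hairpins from which the cluster is cut are shown because both arms of each were counted. They are from RefSeq, with the mature arms in capitals, and lie on the minus strand at chr8:60306609-60306692 (miR-34b) and chr8:60306091-60306167 (miR-34c) of GRCr8. The labels name the older build Rnor_6.0, and no position was converted.
Mir34b: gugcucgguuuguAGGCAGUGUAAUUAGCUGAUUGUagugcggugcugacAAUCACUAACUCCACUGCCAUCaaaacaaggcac
Mir34c: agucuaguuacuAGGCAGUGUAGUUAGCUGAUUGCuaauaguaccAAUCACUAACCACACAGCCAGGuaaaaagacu

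In the RefSeq annotation both hairpins overlapped the gene Hoatz, known for a part in motile cilia and sperm flagella, and the next coding gene on 1 side was Btg4. MiR-449a (chr2:46403910-46404000, plus strand) overlapped a non-coding gene, with Mcidas and Ccno as the nearest coding genes on 1 side. These encode multicilin and cyclin O, regulators of the program that makes many cilia. MiR-34a (chr5:165815952-165816053, plus strand) overlapped a separate non-coding gene, between H6pd and Gpr157. Strand was not compared for any of these overlaps. Whether any of these genes changed was not measured.

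Library totals ran from 10665718 counts (MK-801+CLO replicate 2) to 18284905 counts (VEH replicate 3), so that a miRNA with 0 counts could still be present at 0.164 to 0.281 CPM, depending on the library. CPM is the count scaled to a library total of 1000000 counts. As a check for neural tissue, which does not single out hippocampus, 8 of 8 neuron miRNAs (such as miR-9a-5p, miR-124-3p and miR-128-3p) were measured. Their summed levels were 123698 to 152777 CPM over the 9 libraries, and most of each sum was miR-9a-5p (73353 to 91869 CPM). In edgeR no miRNA of 469 tested passed an adjusted p of 0.05 in any of the 3 comparisons (0%), and none of the 7 family rows did. At an unadjusted p under 0.05, edgeR had 24 miRNAs (5.12%) when MK-801 was compared with VEH and 39 (8.32%) between the groups that received MK-801. Between MK-801+CLO and VEH there were 70 (14.9%). DESeq2 called 1 (0.213%), 2 (0.426%) and 11 (2.35%) in the same order, and limma voom 0 in each. Among the 11 DESeq2 calls for MK-801+CLO against VEH were 2 family rows, miR-34b-5p and miR-34c-3p, both lower. Since the family was chosen with that comparison in view, nothing is read from this count.

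MiR-34c-5p was the main form, with a mean of 1047 CPM over the 9 libraries, rank 68 of 633. MiR-34a-5p followed at 117 CPM (rank 174), then miR-34b-5p at 31.2 CPM, miR-34b-3p at 22.3 CPM, miR-34c-3p at 15.0 CPM and miR-449a-5p at 12.3 CPM. MiR-34a-3p, the arm of miR-34a that is mostly discarded, had 59 counts in all and at most 0.983 CPM, so no more is made of it. MiR-449c-5p, outside the rows chosen, had 1 count in 9 libraries. In every library miR-34c-5p was the highest member and miR-34a-5p the next. At the lower end the order was less firm, since miR-34c-3p and miR-449a-5p changed places between libraries. Mature miRNAs are nearly equal in length, but how well each is captured in a small RNA library was not measured, so these ranks compare read counts.

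MiR-34c-5p, the guide arm that makes up most of the family, stood at 1420, 1031 and 1759 CPM in VEH replicates 1, 2 and 3. It stood at 878, 1425 and 866 CPM in the MK-801 replicates and at 533, 1045 and 467 CPM in the MK-801+CLO replicates. Replicates 1 and 3 of MK-801+CLO held the lowest levels of all libraries, while replicate 2 lay just above VEH replicate 2, so the groups overlapped. Group means were 1403 ± 364 CPM in VEH, 1056 ± 320 CPM in MK-801 and 682 ± 317 CPM in MK-801+CLO (SD, n = 3 each). The log2 fold change of MK-801+CLO was -0.98 ± 0.32 against VEH and -0.58 ± 0.32 against MK-801 (± SE, from the edgeR fit), and that of MK-801 against VEH was -0.40 ± 0.32. In a bulk sample, fewer cells of a type and less of the miRNA per cell cannot be told apart.

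MiR-34b-5p, its partner from the same transcript, was at 45.2, 30.4 and 54.0 CPM in VEH, at 27.2, 44.4 and 28.1 CPM in MK-801 and at 16.9, 23.2 and 11.7 CPM in MK-801+CLO (replicates 1, 2 and 3). All 3 MK-801+CLO libraries lay below all 6 others. The nearest values were 23.2 CPM in MK-801+CLO replicate 2 (95% Wilson interval 20.4 to 26.2, counting error only) and 27.2 CPM in MK-801 replicate 1 (24.6 to 29.9), so the intervals of these 2 libraries overlap. The log2 fold change was -1.28 ± 0.29 for MK-801+CLO against VEH, 2.42-fold lower, and -0.91 ± 0.29 against MK-801, 1.87-fold lower. For MK-801 against VEH it was -0.37 ± 0.28, with ranges that overlapped.

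The 3p arms, which are usually retained less, had the same order of libraries within each group as miR-34b-5p. MiR-34c-3p was at 21.9, 14.8 and 25.8 CPM in VEH, then 11.7, 21.0 and 14.7 CPM in MK-801 and 7.77, 12.3 and 5.31 CPM in MK-801+CLO. The 3 MK-801+CLO libraries lay below VEH, but replicate 2 lay above MK-801 replicate 1. Its log2 fold change was -1.26 ± 0.32 for MK-801+CLO against VEH, -0.87 ± 0.32 against MK-801, and -0.39 ± 0.30 for MK-801 against VEH.

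MiR-34b-3p was at 31.2, 20.1 and 38.1 CPM in VEH, then 18.8, 31.7 and 21.6 CPM in MK-801 and 10.7, 20.4 and 7.97 CPM in MK-801+CLO. Here replicate 2 of MK-801+CLO and replicate 2 of VEH were nearly level, so the ranges overlapped. The log2 fold change was -1.15 ± 0.35 for MK-801+CLO against VEH, -0.85 ± 0.35 against MK-801, and -0.30 ± 0.34 for MK-801 against VEH.

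MiR-449a-5p, which comes from another chromosome but shares the seed, was at 16.9, 8.16 and 20.9 CPM in VEH. The MK-801 libraries had 14.1, 12.1 and 11.8 CPM and those of MK-801+CLO had 7.37, 14.3 and 5.09 CPM. The ranges of all groups overlapped, with VEH replicate 2 nearly as low as MK-801+CLO replicate 1. Its log2 fold change was -0.75 ± 0.39 for MK-801+CLO against VEH, -0.48 ± 0.39 against MK-801 and -0.27 ± 0.38 for MK-801 against VEH. Without VEH replicate 3 the last of these was 0.02, so its sign rests on that library.

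MiR-34a-5p lay on the other side. It was at 135, 83.9 and 66.8 CPM in VEH, at 86.8, 133 and 112 CPM in MK-801 and at 179, 93.2 and 167 CPM in MK-801+CLO. Replicates 1 and 3 of MK-801+CLO were the highest of all libraries, and replicate 2 lay within the VEH and MK-801 ranges. The log2 fold change was 0.67 ± 0.29 for MK-801+CLO against VEH, 0.45 ± 0.29 against MK-801 and 0.23 ± 0.29 for MK-801 against VEH. Without VEH replicate 3 the last of these was 0.02. Replicate 2 of MK-801+CLO was thus the lowest of its group in miR-34a-5p and the highest in the other 5 abundant rows. It was also the library with the fewest counts, and whether its depth has a part in this was not tested.

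**Figure D1:**
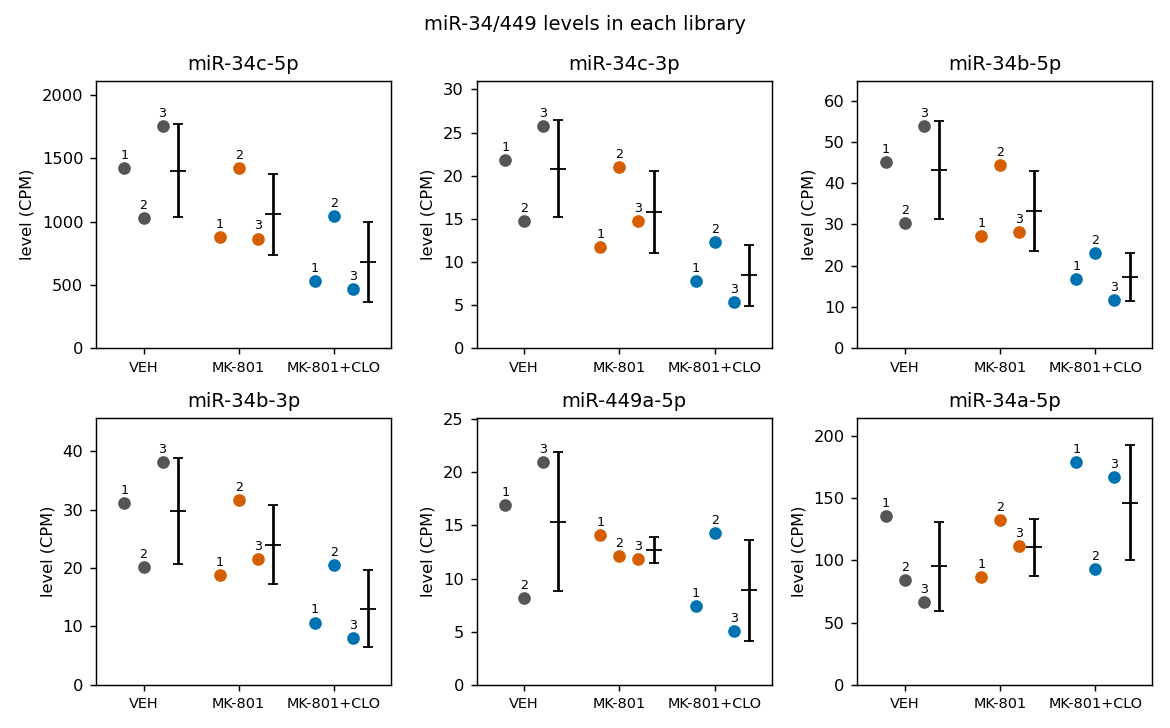
CPM (vertical, linear from 0) of 6 family members by group (horizontal); numbered points stand for single libraries, the number being the replicate, with the mean ± SD of 3 libraries drawn in black. Replicates 1 and 3 of MK-801+CLO are lowest for the 4 miR-34b/34c arms and highest for miR-34a-5p, and replicate 2 lies near the other groups.

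Non-overlap of the groups was also counted over all 469 tested miRNAs. For MK-801+CLO against VEH, 54 (11.5%) had every MK-801+CLO library below every VEH library, and 2 of the 7 family rows were among them, miR-34b-5p and miR-34c-3p. A further 28 (5.97%) had every library above, with 0 family rows. For MK-801+CLO against MK-801, 32 (6.82%) lay below, with 1 family row, miR-34b-5p, and 22 (4.69%) above, with 0. For MK-801 against VEH, 37 (7.89%) lay below and 28 (5.97%) above, with 0 family rows on either side. The family was chosen with these contrasts known, so nothing is read from these counts.

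The mean log2 fold change of the 4 miR-34b/34c rows was -1.17 between MK-801+CLO and VEH, -0.80 between MK-801+CLO and MK-801, and -0.37 between MK-801 and VEH. The medians over all tested miRNAs were 0.003, -0.004 and -0.018. The 5th and 95th percentiles of all miRNAs were -0.74 and 0.43, -0.59 and 0.44, and -0.43 and 0.40 in the same order. In MK-801+CLO against VEH the 4 cluster rows and miR-449a-5p lay below the 5th percentile and miR-34a-5p above the 95th. Between MK-801+CLO and MK-801, miR-34b-5p, miR-34b-3p and miR-34c-3p lay below the 5th percentile and miR-34a-5p just above the 95th, while miR-34c-5p and miR-449a-5p lay between them. In MK-801 against VEH all 6 abundant rows lay between these percentiles. The 3 comparisons share their libraries in pairs, so their values are not independent of each other.

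**Figure D2:**
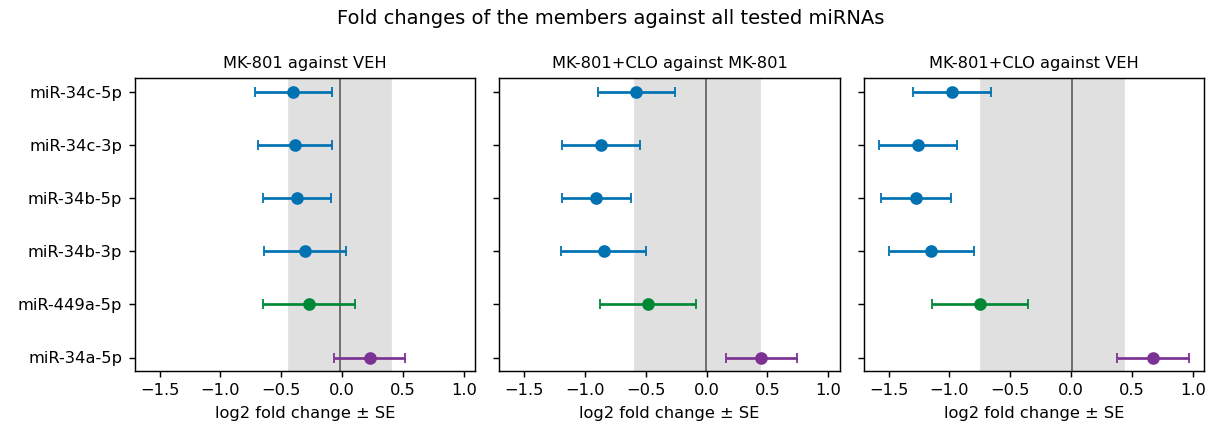
Log2 fold change ± SE (edgeR, 3 libraries on each side) of 6 family members in the 3 comparisons; the grey band spans the 5th to 95th percentile of all 469 tested miRNAs and the line is their median. The cluster rows lie at -0.98 to -1.28 and miR-34a-5p at 0.67 for MK-801+CLO against VEH.

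Single libraries moved these values. Without MK-801+CLO replicate 2, 7 of 476 tested miRNAs passed in edgeR for MK-801+CLO against VEH, and the 4 miR-34b/34c rows were among them. The family was chosen with this comparison in view, so nothing is read from this count either. The mean log2 fold change of the 4 rows was -1.60 in that fit. That mean was -0.96 without MK-801+CLO replicate 3 and -0.97 without VEH replicate 3, and no family row passed then. For MK-801+CLO against MK-801 it ran from -1.21 without MK-801+CLO replicate 2 to -0.57 without MK-801+CLO replicate 3, and no family row passed in either case. For MK-801 against VEH leaving out VEH replicate 3 gave a mean of -0.17, and leaving out MK-801 replicate 2 gave -0.58.

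The levels of the 5p arms with the shared seed were also summed. The sum was 1617, 1153 and 1901 CPM in VEH, then 1006, 1614 and 1018 CPM in MK-801 and 736, 1176 and 651 CPM in MK-801+CLO. As for miR-34c-5p alone, replicates 1 and 3 of MK-801+CLO were lowest and replicate 2 lay just above VEH replicate 2. Group means were 1557 ± 377 CPM in VEH, 1213 ± 348 CPM in MK-801 and 854 ± 282 CPM in MK-801+CLO (SD, n = 3).

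The make-up of this sum also differed between libraries. MiR-34a-5p made up 8.38%, 7.27% and 3.52% of it in VEH, 8.63%, 8.22% and 11.0% in MK-801 and 24.3%, 7.93% and 25.7% in MK-801+CLO. The highest shares belong to MK-801+CLO replicates 1 and 3, and replicate 2 sits among the other groups. In terms of a ratio, there were 10.5, 12.3 and 26.3 counts of miR-34c-5p for each of miR-34a-5p in VEH, 10.1, 10.7 and 7.76 in MK-801, and 2.98, 11.2 and 2.79 in MK-801+CLO. A ratio within a library does not depend on how libraries are scaled. On the log2 scale, miR-34a-5p over miR-34c-5p was -3.91 ± 0.71 in VEH, -3.24 ± 0.25 in MK-801 and -2.18 ± 1.13 in MK-801+CLO (SD, n = 3), and MK-801+CLO replicate 2 (-3.49) lay within the VEH range.

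**Figure D3:**
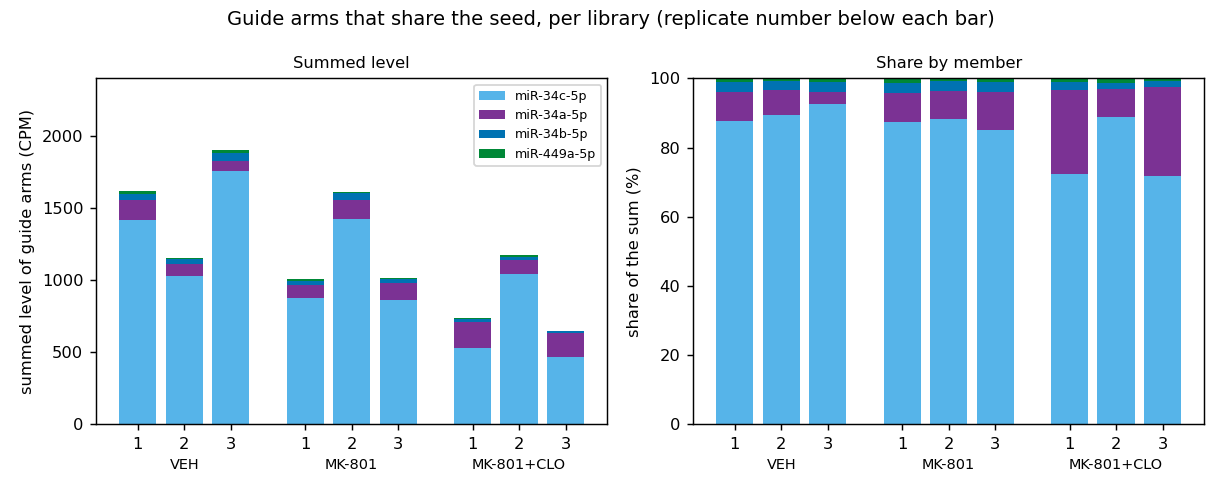
Summed level in CPM (left) and share in percent (right) of the 5p arms with the shared seed in each library, stacked by member, with the replicate number below each bar. MiR-34a-5p takes 24.3% and 25.7% of the sum in MK-801+CLO replicates 1 and 3 and at most 11.0% in the other 7 libraries.

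Ratios between products of the cluster spanned a narrower range. MiR-34c-5p exceeded miR-34b-5p by 30.8 to 33.9 times in 7 of the 9 libraries, and by 45.1 times in MK-801+CLO replicate 2 and 40.0 times in replicate 3. In the last 2 libraries miR-34b-5p rests on 247 and 158 counts. The 5p arm of miR-34c exceeded its 3p arm by 58.7 to 87.8 times, and the 5p arm of miR-34b its 3p arm by 1.13 to 1.58 times. In read counts, the 2 hairpins of 1 transcript thus differed widely in the share of the 3p arm, in all 9 libraries. How well each arm is captured was not measured, and how reads matching both miR-34b-5p and miR-34c-5p were assigned is not given. By group, the 5p to 3p ratio of miR-34c was 67.6 ± 2.45 in VEH, 67.3 ± 8.16 in MK-801 and 80.5 ± 10.4 in MK-801+CLO (SD, n = 3), with ranges that overlapped. For miR-34b it was 1.46 ± 0.05, 1.38 ± 0.08 and 1.39 ± 0.23 in the same order, again with overlap.

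Across the 9 libraries, Pearson's r of log2 CPM (scaled by TMM) between pairs of the 4 cluster rows was 0.96 to 0.99, and 0.95 to 0.99 when each group's mean was first taken away. MiR-449a-5p had r = 0.85 with the cluster mean (0.83 within groups), and miR-34a-5p had r = -0.65 (-0.35 within groups). These are descriptions over libraries that share their groups and scaling, and near-identical sequences may share reads. MiR-449a-5p, whose gene is on another chromosome, thus lay nearer to the miR-34b/34c cluster than miR-34a-5p did in these libraries. This closeness was not particular to the family, since miR-375-3p, outside it, had r = 0.89 with the cluster mean.

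Of 327 other miRNAs with a mean of at least 10 CPM, the 5 most like the cluster mean over the 9 libraries were miR-375-3p (r = 0.89), miR-338-5p (0.85), miR-323-3p (0.85), miR-320-3p (0.85) and miR-448-3p (0.84). MiR-375-3p, a miRNA of endocrine cells, was at 238, 133 and 166 CPM in VEH, then 116, 235 and 93.8 CPM in MK-801 and 91.6, 137 and 41.5 CPM in MK-801+CLO. The 5 most like miR-34a-5p were miR-124-5p (r = 0.92), miR-132-3p (0.85), miR-132-5p (0.85), miR-129-5p (0.83) and miR-339-5p (0.81). In this set miR-132-3p, known to be induced by activity in neurons, was at 2429, 1574 and 2582 CPM in MK-801+CLO, with replicate 2 lowest of its group as for miR-34a-5p, and at 1512 to 1847 CPM in the other 6 libraries.

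Markers of the tissues that border the hippocampus moved along with the cluster in part. Of 14 choroid plexus and ependyma miRNAs listed, 9 were measured and 8 tested. Among the tested, 7 lay below VEH in MK-801+CLO, 6 below MK-801 in MK-801+CLO, and 8 below VEH in MK-801. With 0 of all 469 tested miRNAs past the edgeR threshold in each comparison, none of this list could be among them. The 8 include both arms of miR-204, of miR-448 and of miR-764, so they are not 8 separate markers. Their median log2 fold changes were -1.23, -0.55 and -0.65, beside medians of 0.003, -0.004 and -0.018 over all tested miRNAs. The summed level of the 9 was 2983 to 10647 CPM in VEH, 2768 to 3084 CPM in MK-801 and 2111 to 2794 CPM in MK-801+CLO. In VEH, replicate 3 alone was at 10647 CPM, beside 4351 CPM in replicate 1 and 2983 CPM in replicate 2. This last value lay within the MK-801 range. The list medians were not refitted without VEH replicate 3, so how far those against VEH rest on it was not tested. No measured marker was at 0 in any library, and miR-1912-3p, with 1 to 32 counts a library, was too low to be tested. Their part in the levels of the family was not tested.

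Single markers went different ways. MiR-204-5p, the most abundant marker of choroid plexus in the list, was at 3798, 2613 and 8583 CPM in VEH. It was at 2537, 2634 and 2618 CPM in MK-801, nearly level where miR-34c-5p was not. In MK-801+CLO it was at 1994, 2552 and 1900 CPM, so that replicate 2 was again the highest of its group. MiR-1298 was at 482, 272 and 1884 CPM in VEH, then 170, 343 and 198 CPM in MK-801 and 142, 195 and 156 CPM in MK-801+CLO. MiR-448-3p, from an intron of the serotonin receptor gene Htr2c, was at 25.5, 17.8 and 83.1 CPM in VEH, then 11.8, 24.4 and 11.2 CPM in MK-801 and 12.2, 11.3 and 6.27 CPM in MK-801+CLO. MiR-211-5p, which shares most of its sequence with miR-204-5p, was higher instead, at 21.0, 13.2 and 17.0 CPM in MK-801+CLO against 10.4 to 12.3 CPM in VEH. VEH replicate 3 held the highest level of miR-204-5p, miR-448-3p, miR-34c-5p and miR-449a-5p. Within groups, r with the cluster mean was 0.64 for miR-204-5p, 0.68 for miR-1298, 0.74 for miR-448-3p and -0.41 for miR-211-5p.

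**Figure D4:**
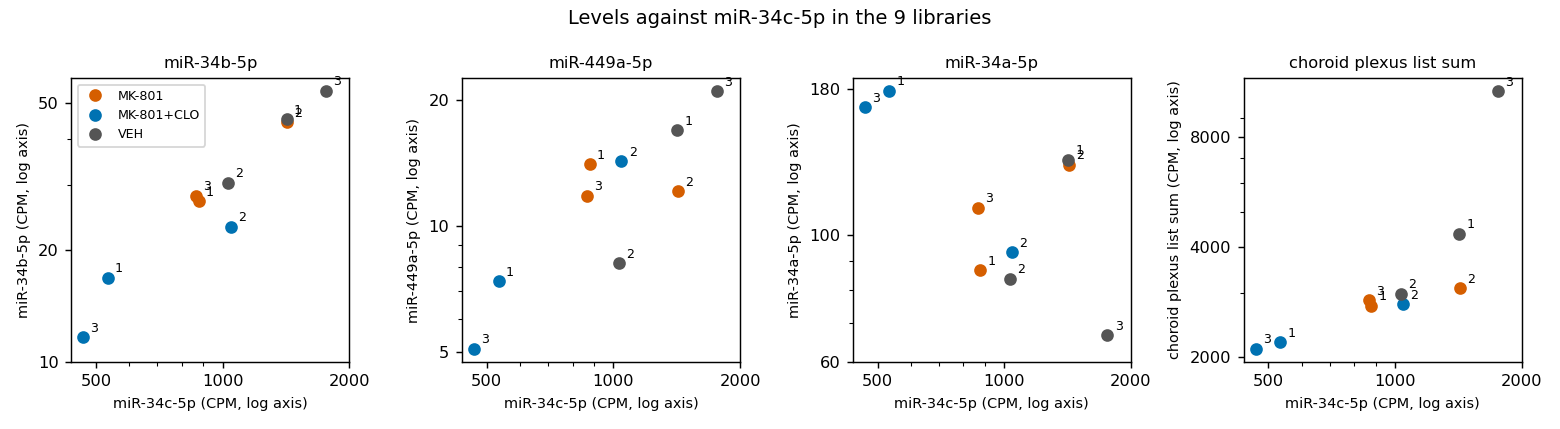
Levels of miR-34b-5p, miR-449a-5p, miR-34a-5p and the sum of 9 choroid plexus and ependyma miRNAs against miR-34c-5p, in CPM on log axes; each point is a library, coloured by group and marked with its replicate number. MiR-34b-5p follows miR-34c-5p most closely, miR-34a-5p is highest where miR-34c-5p is lowest, and VEH replicate 3 lies apart in the sum of the choroid plexus list (10647 CPM).

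Other miRNAs with known ties to the family gave no call in edgeR, where none of the 469 tested miRNAs passed (0%). Of 8 tested p53-responsive miRNAs other than miR-34a, 4 lay above and 4 below VEH in MK-801+CLO (median log2 fold change 0.03), 6 above and 2 below MK-801 in MK-801+CLO (0.22), and 3 above and 5 below VEH in MK-801 (-0.02). Among them, miR-194-5p was at 0.33 ± 0.27 and miR-16-5p at 0.24 ± 0.12 for MK-801+CLO against VEH, and miR-145-5p at -0.21 ± 0.25. The list for cilium assembly held both miR-129 3p arms, which act on CP110, with miR-129-5p and miR-92b-3p. Of these 4, 3 lay above VEH in MK-801+CLO (median 0.18), 4 above MK-801 in MK-801+CLO (0.20) and 2 above VEH in MK-801 (-0.11). Of the epithelial miR-200 and miR-183 clusters, 5 of 8 were tested, with 3 above VEH in MK-801+CLO (0.52), 3 above MK-801 in MK-801+CLO (0.81) and 1 above VEH in MK-801 (-0.16). Only miR-182 among them was above 11.3 CPM in any library, and it was at -0.32 ± 0.37 for MK-801+CLO against VEH.

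Markers of other cells were also set beside the family. The vascular list shares miR-143-3p and miR-145-5p with the p53-responsive list. For MK-801+CLO against VEH, neuron miRNAs lay higher for 5 of 8 (median log2 fold change 0.17), oligodendrocyte miRNAs for 3 of 3 (0.24), vascular miRNAs for 3 of 4 (0.29) and red blood cell miRNAs for 3 of 4 (0.09). Between MK-801+CLO and MK-801, the counts above were 4 of 8 for neuron (-0.01), 1 of 3 for oligodendrocyte (-0.19), 4 of 4 for vascular (0.23) and 4 of 4 for red blood cell miRNAs (0.23). Between MK-801 and VEH they were 4 of 8 (0.03), 3 of 3 (0.42), 1 of 4 (-0.02) and 0 of 4 (-0.16) in the same order of lists. The oligodendrocyte list holds miR-338-3p but not its other arm, miR-338-5p, which lay lower in each comparison. MiR-338-5p was at -1.03 ± 0.38 (MK-801+CLO against VEH), -0.59 ± 0.37 (MK-801+CLO against MK-801) and -0.44 ± 0.37 (MK-801 against VEH). No member of these lists passed the edgeR threshold in any comparison, where none of all 469 tested miRNAs passed (0%), so nothing is read from this. Summed levels of the vascular list were 21837 to 25137 CPM in VEH and 25681 to 30246 CPM in MK-801+CLO, without overlap, and replicate 2 was again nearest to VEH. Most of this sum was miR-143-3p, at 15929 to 19040 CPM in VEH and 19492 to 23136 CPM in MK-801+CLO. Both miR-126a arms also lay wholly higher in MK-801+CLO. MiR-126a-3p was at 932 to 1060 CPM against 825 to 931 CPM in VEH (log2 fold change 0.28 ± 0.09). MiR-126a-5p was at 5054 to 5882 CPM against 4506 to 4776 CPM (0.30 ± 0.09). MiR-145-5p, the remaining member of the list, was at -0.21 ± 0.25. Of all 469 tested miRNAs, 28 (5.97%) lay wholly higher in this comparison, so nothing is read from the non-overlap. For the neuron list the summed levels were 131831 to 137793 CPM in VEH and 123698 to 143284 CPM in MK-801+CLO. The part of these lists in the values of the family was not tested.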

How the data were processed

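Mature miRNAs were counted by the authors in 9 small RNA libraries of rat hippocampus, 3 per group. The deposited table gives whole-number counts and, under a TPM heading, values that equal each count over its library total, so these deposited values are CPM (largest relative difference 0.000473%). The build Rnor_6.0 and the tools Bowtie, DESeq and cutadapt 1.14 are named, without roles, per the submitters' processing notes. In the table, 21 blank lines were dropped and 1 split name was rejoined.

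From the counts, edgeR 4.0.16 (R 4.3.3) kept 469 of 633 miRNAs with filterByExpr (99.997% of counts). Scaling (TMM) and the quasi-likelihood fit included every library. P-values were adjusted by Benjamini-Hochberg over all tested miRNAs, with a threshold of 0.05. The code was tested on simulated data. SE is the absolute log2 fold change over the square root of F. Alternatives included DESeq2 1.42.0 and limma 3.58.1. Intervals are 95% Wilson (SciPy 1.17.1). They and the floor of 3 counts cover counting error only.

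The members and lists were chosen with earlier results of these data known. Named miRNAs are the members, list members, and the 5 outside miRNAs (mean of at least 10 CPM) most correlated with the cluster mean and with miR-34a-5p. Within groups, no pair of libraries agreed within sampling noise.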

Additional observations from a re-analysis of the deposited data

How the results depend on the processing

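The mean log2 fold change of the 4 miR-34b/34c rows kept its sign under all 20 alternatives per comparison. Of these, 11 did not leave out a single library: scaling, filters, other tools, pseudocounts, a fit on the groups compared only and the replicate block. Over these 11 the mean ran from -0.42 to -0.29 for MK-801 against VEH and from -0.89 to -0.77 between MK-801+CLO and MK-801. Between MK-801+CLO and VEH it ran from -1.24 to -1.14. Leaving out 1 library gave -0.58 to -0.17, -1.21 to -0.57 and -1.60 to -0.96. MiR-34a-5p kept its sign throughout, at 0.02 to 0.55, 0.31 to 0.68 and 0.47 to 1.01 with 1 library left out. Its value of 0.02, for MK-801 against VEH without VEH replicate 3, is nearly no difference. MiR-449a-5p was at 0.02 for MK-801 against VEH without VEH replicate 3.

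DESeq2 called 1, 2 and 11 miRNAs where edgeR called 0, 0 and 0, and the cause was not tested. With 1 library left out, edgeR called 0 to 1 (1 without MK-801 replicate 2), 0 to 2 and 0 to 7 (the highest of both without MK-801+CLO replicate 2). At an unadjusted p under 0.05 the counts ran from 15 (without VEH replicate 3) to 37 (without MK-801 replicate 2), from 18 (without MK-801+CLO replicate 3; 23 without MK-801 replicate 1) to 52, and from 34 (without MK-801+CLO replicate 3; 38 without VEH replicate 3) to 84. Upper-quartile scaling moved the median of all miRNAs from -0.004 to -0.12 for MK-801+CLO against MK-801, where 4 were higher and 44 lower, against 22 and 17. For MK-801 against VEH it gave 28 higher and 6 lower, against 14 and 10. Library totals alone gave 17 higher and 46 lower for MK-801+CLO against VEH, against 35 and 35.

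Adding a replicate block, in the same order of comparisons, left 0, 0 and 0 miRNAs past the threshold, and 25, 35 and 64 had an unadjusted p under 0.05. Deviations of libraries with the same number correlated at -0.35 to 0.13, so the numbers were not taken as a pairing. At the depth of these libraries miR-34a-3p could not be followed: its sign for MK-801+CLO against VEH turned in 3 of 17 alternatives, reaching 0.33 without MK-801+CLO replicate 3.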
